A study of Mus musculus with 39 samples.

Results

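The tissue described here was subcutaneous adipose, the fat under the skin, of C57BL/6J mice that ate a high-fat diet with KAL-1, compared between the later and the earlier weeks of feeding. KAL-1 is an aqueous ethano-botanical formulation and is not the gene of a similar name. Members were the single arrays of the diets labelled HF5, HF20 and HF75 at Weeks 3, 6, 9, 12, 15 and 18, which gave 9 early arrays (Weeks 3 to 9) and 9 late arrays (Weeks 12 to 18), or 18 of the 39 arrays of the series. A paper on liver arrays of this experiment counts these weeks from a later day than the start of the diet. Time on the diet was therefore longer than the week number. Mice entered 5 diet groups of 30 animals after weaning, at 3 to 4 weeks of age. The 3 KAL-1 groups received 5, 20 or 75 µg of the formulation on a diet with added sucrose and 60% of its calories from fat. That diet alone was called HFC, a diet with 10% of calories from fat was called LFC, and the 6 weekly arrays of each serve below for comparison. At each of these weeks 5 animals per group were killed, total RNA was labelled with Cy3, and 1 single-colour Agilent array stood for each diet and week. The series' design text speaks of 3 biological replicates per diet, whereas 1 array per diet and week was analysed here, and the sources used here do not say whether an array held 1 animal or a pool. No KAL-1 array without KAL-1 or before Week 3 entered the comparison, so a difference between periods includes growth and ageing of the mice as well as feeding.

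Only 3 weeks a side carried the difference. The 18 arrays were scanned on 8 days, and 0 of these days held arrays of both periods, so week and scan day cannot be told apart. Arrays of the same week resembled each other (median Pearson r over genes 0.957, 18 pairs) more than arrays of different weeks within a period (0.920, 54 pairs) or across periods (0.920, 81 pairs). With the weeks taken as the units, an exact permutation test of 3 against 3 could not give a p below 0.1, and p-values over the 18 arrays measure the spread between arrays that partly shared a week.

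Several arrays went against their neighbours or their labels. The level of the HF75 Week 3 array was far from all others in skeletal muscle genes: the mean of 16 markers was 7.15 there and lay between -3.35 and 0.40 on the other 8 early arrays. The creatine kinase gene Ckm was at 7.93 on it and at -4.66 and -4.30 on the HF5 and HF20 arrays of that week. Other muscle genes on HF75 Week 3 lay close to that level (Mylpf 7.60, Tnni2 7.55), and 352 of its spots were flagged as saturated. Its muscle levels may therefore be understated. Among late arrays HF5 Week 12 had the highest muscle mean, 4.83, with the next at 1.62. Values without HF75 Week 3, or without both arrays, stand beside the main list results, a choice made after the data were seen. A deposited table of ratios matched its own arrays at r between 0.997 and 1.000, except that the columns for HF5 and HF20 of Week 12 each matched the array of the other dose, so those 2 labels are exchanged in 1 of the sources. The exchange touches doses and not periods. The HF5 and HF20 arrays of Week 3 were the closest pair (r = 0.988). Their spots differed by a median of 0.219 on the log2 scale, the smallest value of the same-week pairs, and whether they hold 1 RNA is not given in the sources used here. They were counted as separate samples, and without HF20 Week 3 the count of genes passing the adjusted limit was 0, as with it. All 20 adipocyte markers were well above background on every array, and adiponectin (Adipoq) lay between 1.89 and 6.74, which shows fat but does not tell one depot from another. The title of the HF5 Week 12 sample carries the letter B where the other KAL-1 titles carry S, although its tissue is labelled subcutaneous, and the table column of that title matched the HF20 Week 12 array. On that array Ucp1, the uncoupling protein of brown fat, was at 6.51 and the mean of 11 thermogenic genes was 2.65, with the next late array at 0.49. Without HF20 Week 12, left out after the data were seen, 0 genes passed the adjusted limit, and 5.77% were higher and 5.57% lower at the unadjusted one.

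All levels are log2 signals relative to the 75th percentile of the array, so that 0 is the level of a fairly bright gene, and a difference is late minus early, in log2 units, with its standard error from limma. White fat stores triglyceride in large adipocytes. Between them lie progenitors, vessels, macrophages and lymphocytes, and prolonged high-fat feeding is known for enlarging the depot, recruiting immune cells and remodelling its matrix. Genes of dividing cells in this tissue report on progenitors and immune cells, since mature adipocytes rarely divide.

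No single gene passed the test over the whole array. Of 18740 genes tested with limma, with dose as a block, 0 (0%) had a Benjamini-Hochberg adjusted p under 0.05, and the smallest adjusted p was 0.224. At an unadjusted p under 0.05, 974 genes (5.2%) were higher and 998 (5.33%) were lower in the late weeks, so the counts of list members below are read against these shares. The lists were chosen with earlier results of these data known, so such counts describe the lists and are no independent support. The median difference of all genes tested was -0.01. With week as a random block the same limit left 392 genes (2.09%) on the higher and 397 (2.12%) on the lower side. The mean of the 3 doses was higher in each late week than in every early week for 819 genes (4.37%), and lower for 967 (5.16%). When 1 week other than Week 3, or 1 dose, was left out, 2.64% to 6.06% of genes were higher and 2.51% to 4.63% lower, and under 3 other normalizations 2.68% to 6.16% and 5.59% to 7.27%, the shares to set beside list counts from those alternatives. Without HF75 Week 3 and with week as a random block they were 1.56% and 2.66%.

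Among the 5 genes with the smallest p on the higher side was Cyp1a1, a cytochrome P450 induced by ligands of the aryl hydrocarbon receptor. Its level was -6.87 at the lowest, -5.77 at the median and -4.04 at the highest of the 9 early arrays, and -4.37, -2.38 and -0.08 on the late arrays. The periods overlapped only at their edges, and the probe was well above background on 3 of 9 early and 9 of 9 late arrays. The difference was 3.21 ± 0.58 (SE; unadjusted p = 3.45e-05, limma adjusted p = 0.224). It sets mostly dim early signals against late ones and is no exact size. By dose, the probe was above background on 2 of 3 early HF5 arrays, 1 of 3 HF20 arrays and 0 of 3 HF75 arrays, so no size is given for HF75 and doses are not compared for this gene. Over the same weeks the probe was near background in the other diets, above it on 1 of 3 early and 2 of 3 late LFC arrays and on 1 of 3 early and 1 of 3 late HFC arrays, so no sizes are given there. Under normexp background correction, which compresses dim probes, the late minus early difference of Cyp1a1 was 0.30.

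Others on the higher side were Saa2, an acute-phase serum amyloid gene, at -6.31, -5.12 and -3.75 early and -3.97, -3.31 and -2.13 late (lowest, median, highest). Its difference was 1.86 ± 0.36 (unadjusted p = 8.84e-05, limma adjusted p = 0.224), it was above background on 3 early and 9 late arrays, and under normexp correction it became -0.0029. Spdya, a cell cycle regulator, differed by 1.16 ± 0.21 and turned to -0.32 under normexp, so the direction of both dim genes rested on the background step. Mpzl2, an adhesion protein of epithelia, was at -3.83, -3.07 and -1.75 early and -2.05, -1.83 and -0.84 late, a difference of 1.33 ± 0.29 that was 0.062 under normexp correction (unadjusted p = 0.82). Klhl2, an adaptor of a ubiquitin ligase, was at -1.94, -0.76 and -0.07 early and -0.25, 0.33 and 1.35 late. It differed by 1.26 ± 0.28 and was above background on all 18 arrays. The gap junction gene Gja1 (1.60 ± 0.40) ranged from -2.17 to 1.61 early and from 0.77 to 2.65 late, and the clock gene Per2 (1.33 ± 0.33) had medians of -1.65 early and -0.35 late. A second probe of Per2 gave only 0.12, so its probes disagree.

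On the lower side Tk1, the thymidine kinase that cells make for DNA synthesis, stood out. Its early levels were -2.33, -1.16 and -0.16 and its late levels -3.23, -2.61 and -2.02, overlapping only at the edges. The difference was -1.36 ± 0.25 (unadjusted p = 4.41e-05, limma adjusted p = 0.224), it was negative at HF5, HF20 and HF75 (-0.97, -1.44 and -1.66, or -0.68 and -1.73 at the first pair with their Week 12 labels exchanged), and it was -0.20 on HFC and -2.57 on LFC. Rpl6, a protein of the large ribosomal subunit, differed by -1.69 ± 0.32 by one probe and by -0.20 by the other, so no direction is given for the gene. Tlr11, a receptor for microbial profilin, was above background on 7 of 9 early and 2 of 9 late arrays, so its measured difference of -1.45 ± 0.29 sets dim late signals against early ones and is no exact size. Nlrc4, an inflammasome sensor, was above background on 9 early and 5 late arrays and differed by -1.66 ± 0.37. Cxxc5, a zinc finger regulator of Wnt signalling, lay between 0.39 and 1.26 early and between -0.47 and 0.13 late, with no overlap, a difference of -0.76 ± 0.16. A second probe of Cxxc5 gave -0.50.

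Groups of 9 that did not overlap were rare. All 9 late arrays lay above all 9 early arrays for 2 genes (0.0107%), 2010109K11Rik at 0.93 ± 0.20 and Dcun1d3, which takes part in cullin neddylation, at 0.54 ± 0.15. All late arrays lay below for 3 genes (0.016%), Cxxc5, Fam189b at -1.05 ± 0.24 and the condensin subunit Ncapd2 at -0.76 ± 0.19. These were named because of their separation, after their values were seen.

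**Figure D1:**
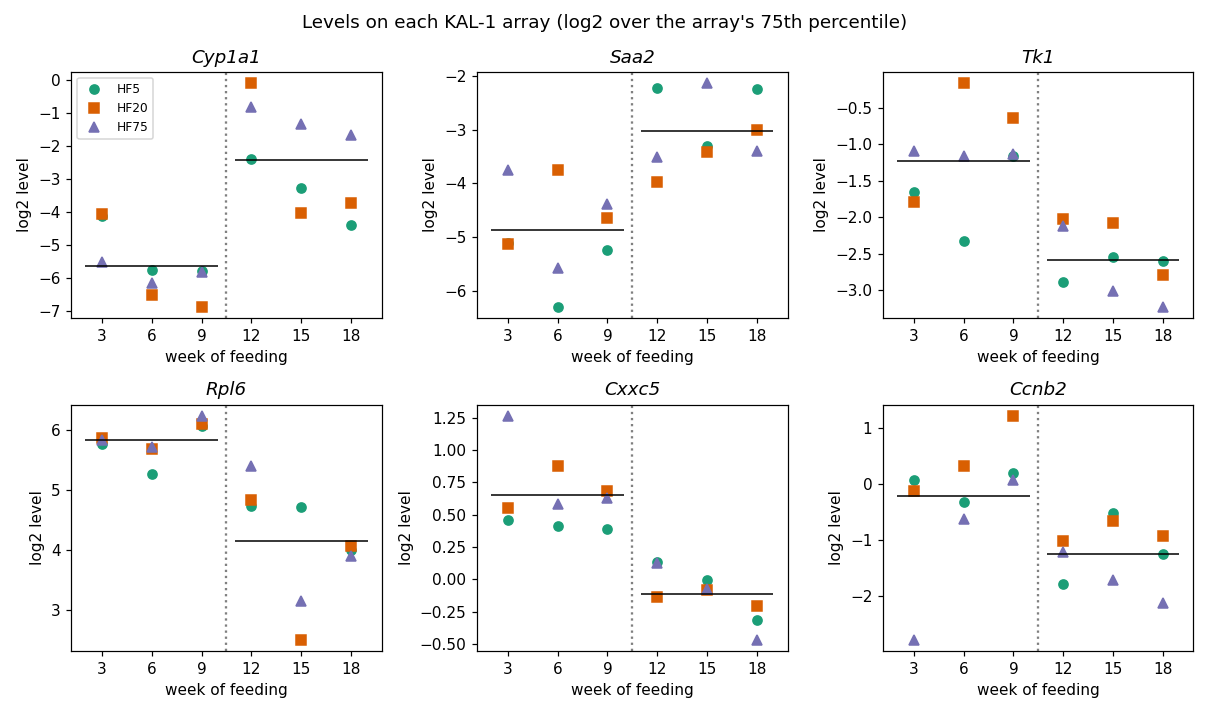
Level of Cyp1a1, Saa2, Tk1, Rpl6, Cxxc5 and Ccnb2 (log2 over the array's 75th percentile, vertical axis) on each KAL-1 array by week number of the study (horizontal axis), with a symbol per dose and lines at the mean of each period. All 9 late Cxxc5 points lie below all early points, while HF75 Week 3 is the lowest early point of Ccnb2 at -2.77.

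The cell cycle list had the most members on one side. Of 20 genes tested, 9 were lower late at an unadjusted p under 0.05 and 0 were higher, against 5.33% of all genes on the lower side, and the median difference was -0.59 against -0.01 for all genes. With week as a random block the count was 6, against 2.12%. The mean level of the list lay between -2.07 and -1.37 on the late arrays and between -1.34 and -0.50 on 8 of the early arrays, so the periods did not overlap apart from HF75 Week 3 at -2.75. In whole tissue, fewer cells of a type and less RNA per cell cannot be told apart. Without HF75 Week 3, 13 of the 20 were lower and 0 higher, where 1616 of all genes (8.62%) were lower and 1266 (6.76%) higher, and the list median was -0.81. Without that array and HF5 Week 12 the count was again 13, where 1207 genes (6.44%) were lower and 1008 (5.38%) higher. Leaving out Week 9 gave 3, Week 18 gave 4 and HF20 gave 2, so the count leaned on those arrays, while the median stayed below 0 in all 34 alternatives run.

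Members from different phases of division lay on the lower side. Tpx2, a spindle assembly factor, had the smallest p of the list, with levels of -3.08, -2.17 and -1.38 early and -4.28, -3.10 and -2.52 late and a difference of -1.07 ± 0.26 (unadjusted p = 0.000696, limma adjusted p = 0.312). The mitotic cyclin Ccnb2 was at -2.77, 0.08 and 1.22 early and at -2.11, -1.21 and -0.51 late. Its difference was -1.02 ± 0.33, and -1.30 without HF75 Week 3, and a second probe gave -0.55. Cyclin Ccna2 differed by -1.13 ± 0.38, the checkpoint kinase Bub1b by -1.32 ± 0.38 and Cdc2a, the cyclin-dependent kinase now called Cdk1, by -1.04 ± 0.36. Aurka and Aurkb, kinases of the spindle, differed by -1.01 ± 0.41 and -1.10 ± 0.47, topoisomerase Top2a by -1.01 ± 0.47 and the replication licensing factor Mcm2 by -0.59 ± 0.22. Not every member followed. The proliferation antigen gene Mki67 was at a difference of 0.15 ± 0.54, the polymerase clamp Pcna at 0.19 ± 0.24 and Mcm3 at 0.49 ± 0.44.

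By the array labels the list median was -0.60 at HF5, -0.92 at HF20 and -0.26 at HF75, the dose whose Week 3 array holds the muscle signal, and with HF5 and HF20 of Week 12 exchanged it was -0.74 and -1.04 at those doses. Over the same weeks it was -1.79 on LFC and 0.08 on HFC. Late minus early therefore had its lowest cell cycle median on the low-fat diet, with KAL-1 between the diets, and the gene by gene tests between diets stand at the end.

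Promoters of the division genes are shown because the members lay on one side together. In G2 and mitotic genes 2 short elements recur in the literature, the CCAAT box and the cell cycle homology region TTTGAA. Among 17 cell cycle genes with a promoter in RefSeq (GRCm38.p6), CCAAT on either strand stood in the 250 bases before the start in 15, against 33.8% of 32851 promoters. TTTGAA on either strand stood in 6, against 16%, and both in the same 6, against 5.55%. Mki67, which did not follow the list, was among these 6, and Pcna and Mcm3, which did not follow either, held CCAAT. Bub1b and Aurka, which were lower, held no TTTGAA. These are matches of letters and not binding sites. Capitals mark each match of the CCAAT box or of the homology region in either orientation, and each sequence ends at the base before the start. Ccnb2 is at chr9:70421555-70421804, minus strand, Cdc2a at chr10:69352913-69353162, minus strand, and Top2a at chr11:99024190-99024439, minus strand.
Ccnb2: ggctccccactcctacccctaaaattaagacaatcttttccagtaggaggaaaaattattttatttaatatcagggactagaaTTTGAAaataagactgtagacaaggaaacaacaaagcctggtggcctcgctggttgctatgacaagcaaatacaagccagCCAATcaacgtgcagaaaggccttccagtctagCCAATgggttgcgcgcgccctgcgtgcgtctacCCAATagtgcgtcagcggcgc
Cdc2a: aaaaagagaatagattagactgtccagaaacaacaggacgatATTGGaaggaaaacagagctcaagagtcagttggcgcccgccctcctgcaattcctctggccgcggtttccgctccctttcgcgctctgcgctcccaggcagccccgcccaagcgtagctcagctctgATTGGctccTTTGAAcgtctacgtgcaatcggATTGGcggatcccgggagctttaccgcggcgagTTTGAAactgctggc
Top2a: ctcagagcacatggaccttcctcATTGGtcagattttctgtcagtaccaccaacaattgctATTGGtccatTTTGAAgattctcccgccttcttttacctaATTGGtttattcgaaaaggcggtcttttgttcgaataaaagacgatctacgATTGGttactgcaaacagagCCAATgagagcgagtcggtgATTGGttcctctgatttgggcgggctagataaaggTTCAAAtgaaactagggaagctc
Ccnb2 holds 3 CCAAT matches, the nearest beginning 21 bases before the start, with its TTTGAA at 167 bases. Cdc2a holds 3, the nearest at 48 bases, with its nearest TTTGAA at 15 bases. Top2a holds 6 CCAAT matches, and its nearest TTTGAA begins 23 bases before the start. Tk1, the leading gene on the lower side, held none of these letters in its window.

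For Cyp1a1 the letters searched were GCGTG, the core of the element bound by the aryl hydrocarbon receptor, on either strand, which 28.2% of all promoters hold. Its window at chr9:57697363-57697612, plus strand held 1 match, 54 bases before the start, shown in capitals.
Cyp1a1: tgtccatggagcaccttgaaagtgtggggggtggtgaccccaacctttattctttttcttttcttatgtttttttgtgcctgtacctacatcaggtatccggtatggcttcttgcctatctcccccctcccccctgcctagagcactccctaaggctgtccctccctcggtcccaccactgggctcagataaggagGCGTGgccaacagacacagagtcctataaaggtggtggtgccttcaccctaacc
The enhancers of this gene that are best known lie further upstream and were not read here.

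Lymphocyte genes on the lower side were led by B cell members. Of 16 tested, 4 were lower at an unadjusted p under 0.05 and 0 were higher, with a list median of -1.06. Cd79b, part of the B cell receptor, was at -2.69, 0.61 and 2.17 early and -2.78, -1.77 and -0.39 late, a difference of -2.17 ± 0.56 (unadjusted p = 0.00122, limma adjusted p = 0.312). Ms4a1, which codes for CD20, differed by -1.92 ± 0.77. Of the T cell genes, Cd8b1 differed by -1.63 ± 0.64, whereas Cd3e was at -0.49 ± 0.53 and Cd4 at 0.05 ± 0.51. Early arrays spanned a wide range in these genes, with Week 9 the highest week (Cd79b mean 1.79, against 0.01 at Week 3 and -0.09 at Week 6). Leaving out HF75 Week 3 gave 10 of 16 lower (5 with week as a random block as well), and leaving out HF5 Week 12 as well gave 7. The median was -0.09 without Week 9, with 2 genes lower.

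MHC class II genes, which let antigen-presenting cells show peptides to helper T cells, had 3 of 10 members lower and 0 higher, with a median of -1.05. With week as a random block 1 of 10 was lower, and without HF20 Week 12 2 were. H2-Oa, a subunit of the peptide-loading regulator, was at -6.12, -1.15 and 0.79 early and -6.42, -4.16 and -2.65 late. It differed by -2.67 ± 0.75 (unadjusted p = 0.0024, limma adjusted p = 0.345), and by -3.13 without HF75 Week 3, where it was lowest of the early arrays. Ciita, the master transactivator of the class II genes, differed by -1.29 ± 0.49, H2-DMa by -1.19 ± 0.54, and the chains H2-Aa and H2-Eb1 by -1.18 ± 0.68 and -1.11 ± 0.56. When HF75 Week 3 was left out, 9 of 10 were lower (7 with week as a random block as well), and 8 when HF5 Week 12 was left out too. The exception was H2-Ob at 0.22 without HF75 Week 3. Leaving out Week 9 gave 1 of 10 and a median of -0.45.

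Class II promoters are known for a CCAAT-type Y box, and CCAAT on either strand stood in 7 of 7 class II genes with a RefSeq promoter, against 33.8% of all. One of the 7, H2-DMa, has 2 windows, of which 1 held it. Capitals mark the match in H2-Aa (chr17:34287824-34288073, minus strand) and H2-Oa (chr17:34092129-34092378, plus strand).
H2-Aa: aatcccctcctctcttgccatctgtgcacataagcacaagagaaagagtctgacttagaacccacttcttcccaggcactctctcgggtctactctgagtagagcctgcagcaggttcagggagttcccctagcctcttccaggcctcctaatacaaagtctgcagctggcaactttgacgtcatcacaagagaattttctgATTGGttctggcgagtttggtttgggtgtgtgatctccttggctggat
H2-Oa: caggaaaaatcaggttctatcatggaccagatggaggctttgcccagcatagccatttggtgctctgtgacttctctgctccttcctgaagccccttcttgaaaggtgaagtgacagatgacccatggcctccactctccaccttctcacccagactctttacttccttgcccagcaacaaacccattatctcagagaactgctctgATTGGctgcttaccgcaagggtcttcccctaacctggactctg
The matches begin 48 and 43 bases before the start.

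Macrophage markers gave no count at the unadjusted limit: 0 of 14 core genes passed, with a median of -0.39. Emr1, a classical macrophage antigen, differed by -0.42 ± 0.51 and Cd68 by -0.55 ± 0.67. Without HF75 Week 3, 6 of 14 were lower (0 with week as a random block as well), among them Csf1r, the receptor that macrophages need to survive, at -1.59. Without HF5 Week 12 as well, 1 was. Among genes of inflammatory and lipid-laden macrophages, Il6 was the single member past the limit, at 2.52 ± 1.18. Its difference was 1.36 without HF75 Week 3, where its level was -6.11 against 6.40 on both other Week 3 arrays. Without that array the list median of 0.49 became -0.12, with 1 member higher and 2 lower. With week as a random block as well, 0 were higher and 0 lower. Itgax differed by -0.48 ± 0.63 and the chemokine gene Ccl2 by 0.62 ± 0.91. Cx3cr1, the fractalkine receptor of monocytes and macrophages, was above background on 5 of 9 early and 0 of 9 late arrays and so did not enter the comparison. Its levels were -6.05, -4.60 and -3.60 early and -8.42, -7.38 and -6.75 late, with no overlap. When dim probes were kept, it was the single gene of 26320 that passed (limma adjusted p = 0.00672). Each late array was then taken at its own signal or the lowest signal above background on that array, whichever was higher. So taken, the early mean of -4.80 was 3.49-fold higher than late, where the measured mean was -7.39. That early mean takes the 4 arrays not above background, all of Week 3 among them, at their measured signal. The fold is therefore no strict bound.

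Collagen and matrix genes, made by progenitors and fibroblasts, were lower late in 4 of 23 members and higher in 0, with a median of -0.74. Col1a1, a chain of the main fibrillar collagen, was at 4.78, 6.22 and 7.27 early and 2.79, 5.08 and 6.30 late, a difference of -0.94 ± 0.43. Col1a2 differed by -0.76 ± 0.32, Col6a3 by -0.94 ± 0.41 and the basement membrane chain Col4a1 by -0.74 ± 0.35. Tnc, a matrix protein of repair, was at 0.80 ± 0.58. The count was 12 of 23 without HF75 Week 3 (1 with week as a random block as well) and 6 without both that array and HF5 Week 12. Leaving out HF20 Week 3 gave 11, where 6.69% of all genes were lower and 7.12% higher, and leaving out HF20 Week 12 gave 2. The count was 0 with week as a random block, under normexp or quantile normalization, and without Week 9, Week 12 or HF20, and it was 10 under median scaling.

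**Figure D2:**
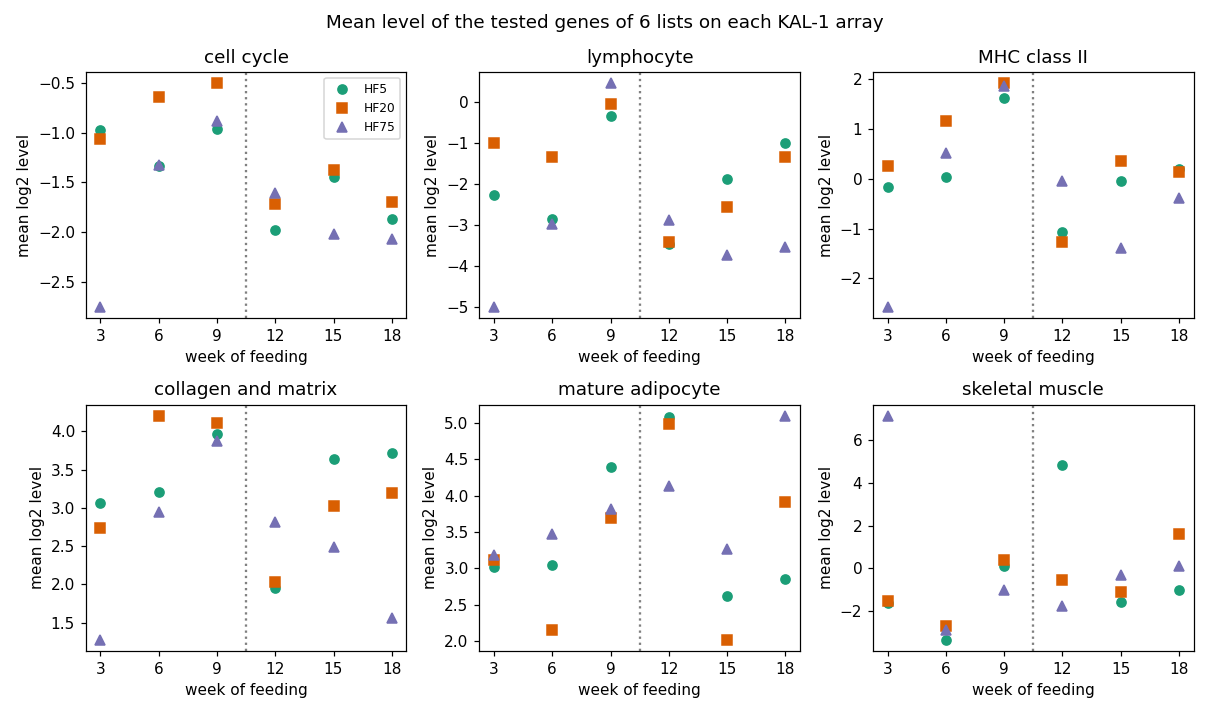
Mean log2 level of the tested genes of 6 lists (vertical axis) on each of the 18 KAL-1 arrays by week number of the study (horizontal axis), with a symbol per dose and a dotted line between the periods. HF75 Week 3 is the lowest point of the cell cycle (-2.75), lymphocyte, MHC class II (-2.57) and matrix (1.28) panels and the highest of the muscle panel (7.15).

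Genes on the higher side formed smaller counts. Of 17 heat shock genes 3 were higher and 0 lower, with a median of 0.43. The chaperone Hsp90aa1 was at 4.11, 5.47 and 5.87 early and 5.06, 6.10 and 7.06 late, a difference of 0.73 ± 0.24, its co-chaperone Ptges3 differed by 0.61 ± 0.20 and Dnajb1 by 0.77 ± 0.34. Other chaperones did not follow: Hsp90ab1 was at -0.25 ± 0.33 and Hspa8 at 0.06 ± 0.18. The count was 2 with week as a random block, 6 without HF75 Week 3, and 5 without HF5 Week 12 as well. Leaving out HF75 Week 3 with week as a random block gave 1. It was 8 under normexp, 0 under median scaling, and 2 without HF20 Week 12, where the median was 0.21.

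Of 14 glucocorticoid-responsive genes 3 were higher and 0 lower, and all 14 differences were positive, with a median of 0.30, which was 0.11 without HF75 Week 3. Fkbp5, a chaperone that dampens the glucocorticoid receptor, was at -0.98, -0.16 and 0.12 early and -0.30, 0.42 and 1.86 late (0.83 ± 0.26). Zbtb16 differed by 0.98 ± 0.34 and the adipogenic factor Cebpd by 0.69 ± 0.30. Tsc22d3 and Per1, both classical targets of the hormone, were at 0.22 ± 0.29 and 0.16 ± 0.31. The list median was 0.27, 0.20 and 0.77 at HF5, HF20 and HF75 (0.36 and 0.0083 at HF5 and HF20 with their Week 12 labels exchanged), 0.39 on HFC and -0.92 on LFC. The count was 1 without Week 18 and 5 without Week 12.

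Vessel genes had 3 of 13 members higher and 1 lower, with a median of 0.58. Flt1 and Kdr, the receptors for VEGF on endothelium, differed by 1.35 ± 0.40 and 1.29 ± 0.47, and the endothelial cadherin Cdh5 by 1.12 ± 0.40. Flt1 was at 4.00, 4.70 and 6.48 early and 5.68, 6.35 and 7.74 late, so it was bright in both periods. Pan-endothelial Pecam1 was at 0.46 ± 0.51 and Vwf at 0.42 ± 0.67, and the stabilising ligand Angpt1 was lower (-0.61 ± 0.25). With week as a random block 3 were higher and 0 lower. The list median was 0.25 without HF75 Week 3, where the same counts held, and with week as a random block as well 1 was higher. The higher count was 1 without Week 9, Week 12 or HF75, 8 without Week 6, and 0 with the 3 against 3 arrays of HF5 alone or of HF20 alone.

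In the TGF-beta and BMP response 4 of 17 were higher and 1 lower, with a median of 0.27. Without HF75 Week 3 the median was 0.06, with 4 higher and 2 lower, and with week as a random block as well 1 was higher and 1 lower. Inhbb, an activin subunit made by adipocytes, differed by 1.53 ± 0.50, the inhibitor Smad7 by 1.05 ± 0.34 and the BMP target Id1 by 1.22 ± 0.44. Pmepa1, also a target, was lower (-0.80 ± 0.24), and the ligands Tgfb1, Tgfb2 and Tgfb3 were at -0.47, -0.08 and -0.47. The median was -0.09 without Week 9, and without HF75 1 gene was higher.

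Of 15 hypoxia-responsive genes 1 was higher, the glucose transporter Slc2a1 at 0.98 ± 0.33, and the list median was 0.50. Without HF75 Week 3 the count was 6, or 3 with week as a random block as well, among them Egln3, an oxygen sensor, at 0.98, the hexokinase Hk2 at 0.98 and Vegfa at 1.01. The array left out had the highest list mean of the early period (2.32). Thermogenic genes gave 1 of 11, Slc27a2, at 1.76 ± 0.55 but -0.26 under normexp. Ucp1, the uncoupling protein of brown fat, was at -3.36, -1.80 and 1.49 early and -2.71, -1.48 and 6.51 late (0.99 ± 1.11), and 1 array, HF20 Week 12, held the maximum. Without that array Ucp1 differed by 0.033 (unadjusted p = 0.965), and the list median, 0.73 with all arrays, was 0.42. Without HF75 Week 3, 4 of 11 were higher (1 with week as a random block as well), with Pdk4 at 1.53, Dio2 at 1.16 and Ppargc1a at 1.26.

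Adipocyte and lipogenic genes gave no count at the unadjusted limit. Of 20 adipocyte genes 0 passed, with 17 positive and a median of 0.52, and the list mean lay between 2.15 and 4.40 early and between 2.02 and 5.09 late. Of 13 genes of fatty acid synthesis 0 passed, though all 13 differences were positive (median 0.42). Without Week 12 the medians of both lists were near 0 (-0.02 and -0.04), and without Week 15, when 7 and 4 genes were higher against 3.42% of all genes, they were 1.05 and 0.86. Without both muscle-rich arrays the medians were 0.17 and 0.15, and without HF20 Week 12 they were 0.24 and 0.16. Fasn, the fatty acid synthase, was at 3.07, 4.78 and 6.47 early and 3.01, 5.15 and 7.39 late (0.44 ± 0.53), and the desaturase Scd1 differed by 0.64 ± 0.67. Leptin (Lep) was at -2.93, -1.62 and 0.77 early and -3.61, -1.09 and 2.19 late (0.30 ± 0.72). Adipoq differed by 0.58 ± 0.59, Pparg, the master regulator of adipocytes, by 0.55 ± 0.44, and the expansion markers Mest and Sfrp5 by -0.08 ± 0.41 and 0.27 ± 0.44. These errors are as large as the differences or nearly so, and 9 arrays a side do not resolve them.

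Other processes had few members past the limit. Of 83 ribosomal protein genes 1 was higher and 3 lower, with 13 differences positive (median -0.18). Of 25 oxidative phosphorylation genes 0 passed (median -0.08), and without HF75 Week 3, 3 were higher (median 0.25). Of 20 proteasome genes 0 passed (median -0.18). The clock list had 2 higher (Per2 and Cry1) and 2 lower (Arntl and Nr1d1) of 15. Of 19 immediate early genes 2 were higher, Jun at 0.74 ± 0.25 and Btg2 at 0.80 ± 0.34. Of its differences 16 were positive, and its median of 0.63 became -0.01 without HF75 Week 3.

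Markers of other cell types were followed for the same arrays. The 16 muscle genes had 0 past the limit (median 0.64) and 3 higher without HF75 Week 3 (median 1.54). Their list mean ranged from -3.35 to 7.15 early and from -1.77 to 4.83 late. Of 15 mammary and epithelial markers 9 were tested and 0 passed, with means of -4.68 to -0.37 early and -4.80 to -1.24 late, and the casein genes Csn1s1 and Csn2 were above background on 0 of 18 arrays. The 4 skin markers tested had 1 higher, Lor, which turned to -0.54 under normexp, with means of -4.27 to -2.03 and -3.33 to -1.56. The 5 liver markers tested had 1 higher, Fgb, with means of -5.58 to -1.38 and -4.27 to -0.90. Red cell (4), mast cell (6) and nerve (8) markers had 0 past the limit, with medians of -0.70, 0.68 and 0.68.

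**Figure D3:**
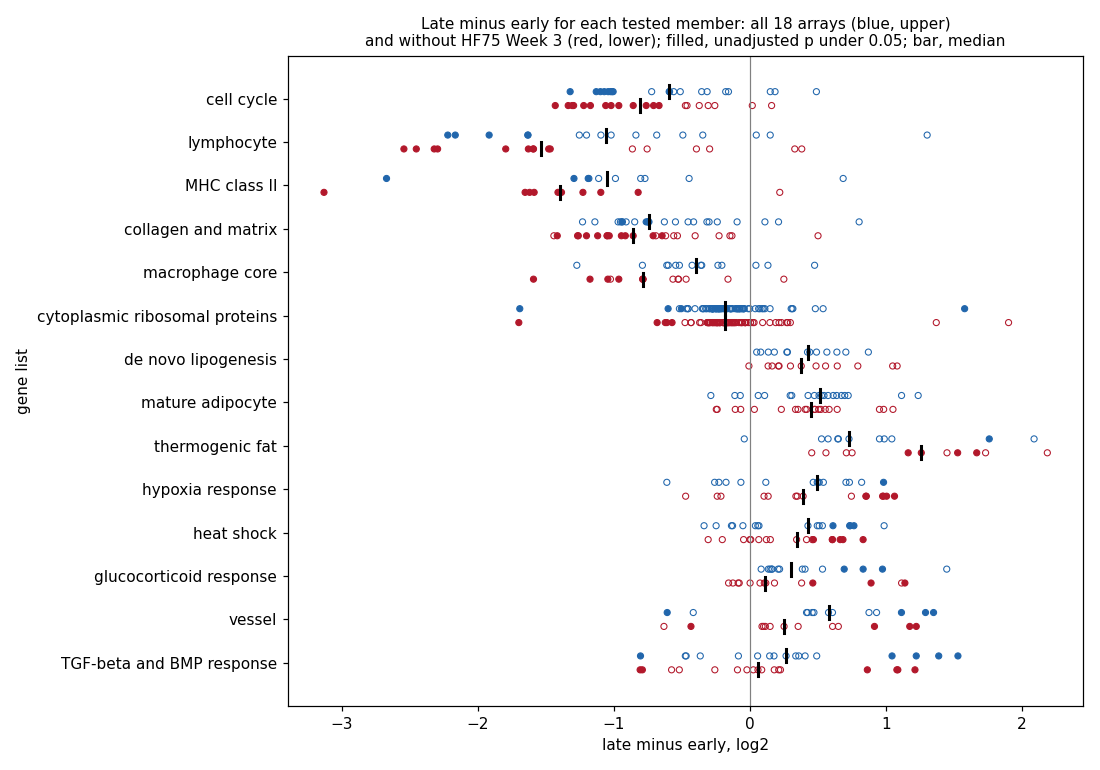
Late minus early difference (log2, horizontal axis) of every tested gene of 14 lists, on 18 arrays (blue, upper) and without the HF75 Week 3 array (red, lower), with filled points at an unadjusted p under 0.05 and bars at the list medians. The cell cycle members are centred on -0.59 and on -0.81 without that array.

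The count of called genes depended on Week 3. Without its 3 arrays, 516 genes passed limma's adjusted p under 0.05, 208 higher and 308 lower, and leaving out any other week gave 0. Without Week 3 these were 1.64% of all genes on the lower and 1.11% on the higher side. Genes called then included 6 of 10 class II genes, all lower (H2-Aa, H2-Ab1, H2-Eb1, H2-DMa, H2-DMb2 and H2-Oa), and 6 of 20 cell cycle genes, all lower (Ccnb2, Ccna2, Cdc2a, Bub1b, Cdc20 and Mcm5). Also lower were Cd79b, Csf1r, Mpeg1, Col4a1, Col4a2 and Col6a1. Cyp1a1 (adjusted p = 0.0288, with the probe above background on 1 of the 6 early arrays kept), Mpzl2 (1.62 ± 0.24, adjusted p = 0.0288), Gja1, Flt1, Cdh5, Smad7, Id1, Il6, Pdk4, Egln3 and Zbtb16 were higher. That fit compares 2 early weeks with 3 late weeks. Leaving out the HF75 Week 3 array alone gave 0 at the adjusted limit and 2882 unadjusted.

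The doses did not separate at this number of arrays. Late minus early at HF75 against that at HF5, with week as a block, gave 0 of 18740 genes (0%) at limma's adjusted p under 0.05 and 1055 (5.63%) at the unadjusted limit, with the smallest adjusted p at 0.749. The 3 genes with the smallest p were Olfr1225 and Gm7360, above background on 9 and 10 of the 18 arrays and given no size, and LOC621779 (-1.80 ± 0.38). This contrast holds 3 arrays per dose and period, includes the HF75 Week 3 array, and stayed at 0 when HF5 and HF20 of Week 12 were exchanged.

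Against the high-fat diet alone, late minus early differed for some genes. The 6 HFC arrays joined the 18 KAL-1 arrays in a fit with diet and week as blocks, with 6 LFC arrays beside them, and 178 of 21087 genes (0.844%) had an adjusted p under 0.05, 99 with the larger difference in KAL-1 and 79 with the smaller. That balance moved with the processing: it was 74 and 18 under quantile normalization, 102 and 39 under median scaling, 82 and 31 with probes above background on all arrays, 38 and 273 without Week 3, 99 and 17 without Week 9, and 155 and 241 without HF75 Week 3. At the unadjusted limit 2677 genes (12.7%) passed. HFC had 1 array a week, so each period of it rests on 3 arrays, and the count depended on single weeks: leaving out Week 6 gave 0, Week 15 gave 1 and Week 12 gave 2. Dropping the week block gave 0 as well.

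The smallest p belonged to Odz4 (5.42 ± 0.70, limma adjusted p = 0.00338), named after its value was seen. Adrb3, the adrenergic receptor of adipocytes that triggers lipolysis, was among the 5 largest differences. On HFC it was at 5.69, 5.13 and 5.28 in Weeks 3, 6 and 9 and at 1.23, -1.35 and 1.33 in Weeks 12, 15 and 18. On KAL-1 its mean was 1.16 early and 2.28 late, a difference of 1.12 ± 0.73, and the difference between the diets was 6.08 ± 0.96 (limma adjusted p = 0.0184). The 3 early HFC arrays lay above all 9 early KAL-1 arrays. Cyp2e1, another P450, was at 6.06 (unadjusted p = 1.91e-05). Among 20 adipocyte genes 6 were called, Adrb3, Plin1 (4.65), Lipe (2.92), Adipoq (3.74), Dgat2 and Retn, and so were Lep (4.73, adjusted p = 0.0319) and Scd1 (3.81, adjusted p = 0.0344). Spots flagged as saturated were kept, so the sizes for the brightest of these genes may be inexact. The adipocyte median, late minus early, was -2.35 on HFC, 0.52 on KAL-1 and 0.72 on LFC. Several lists of other cells had medians of the other sign on HFC: 2.88 for lymphocyte, 2.17 for adipose progenitor, 1.40 for collagen and matrix, 1.04 for MHC class II and 2.12 for skeletal muscle genes. Macrophage core genes had a smaller median of 0.44, and vessel (-0.12), red cell (-0.39) and liver (-0.08) medians were below 0. At the unadjusted limit 17 of the 20 adipocyte genes had the larger difference in KAL-1, while the smaller one was found for 12 of 16 lymphocyte, 7 of 15 progenitor, 14 of 23 matrix, 7 of 10 class II and 0 of 16 muscle genes. The part of these cells in the adipocyte values was not tested.

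In the other direction were Lef1 (-5.63 ± 1.17), a T cell transcription factor above background on 1 of 3 early HFC arrays, Klrc2 (-6.00 ± 1.40), a natural killer cell receptor above it on 2 of 3, and the matrix gene Lum (-3.65). Trat1, Fcer2a and XM_001001076 were called too, but they were above background on 0 of 3 early HFC arrays and their size is not given. Fam110c (8.16 ± 1.34) and Acvr1c (6.29 ± 1.13), a receptor of the TGF-beta family in adipocytes, were called with larger values in KAL-1. Of these Fam110c was above background on 2 of 9 early KAL-1 arrays and both on 2 of 3 late HFC arrays. Their values, like that of Lef1, are therefore no exact sizes. Acsm5 was called as well and was above background on 0 of 3 late HFC arrays. Klhl2, among the leading genes of the late KAL-1 arrays, differed from HFC by 2.27 (adjusted p = 0.0471).

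**Figure D4:**
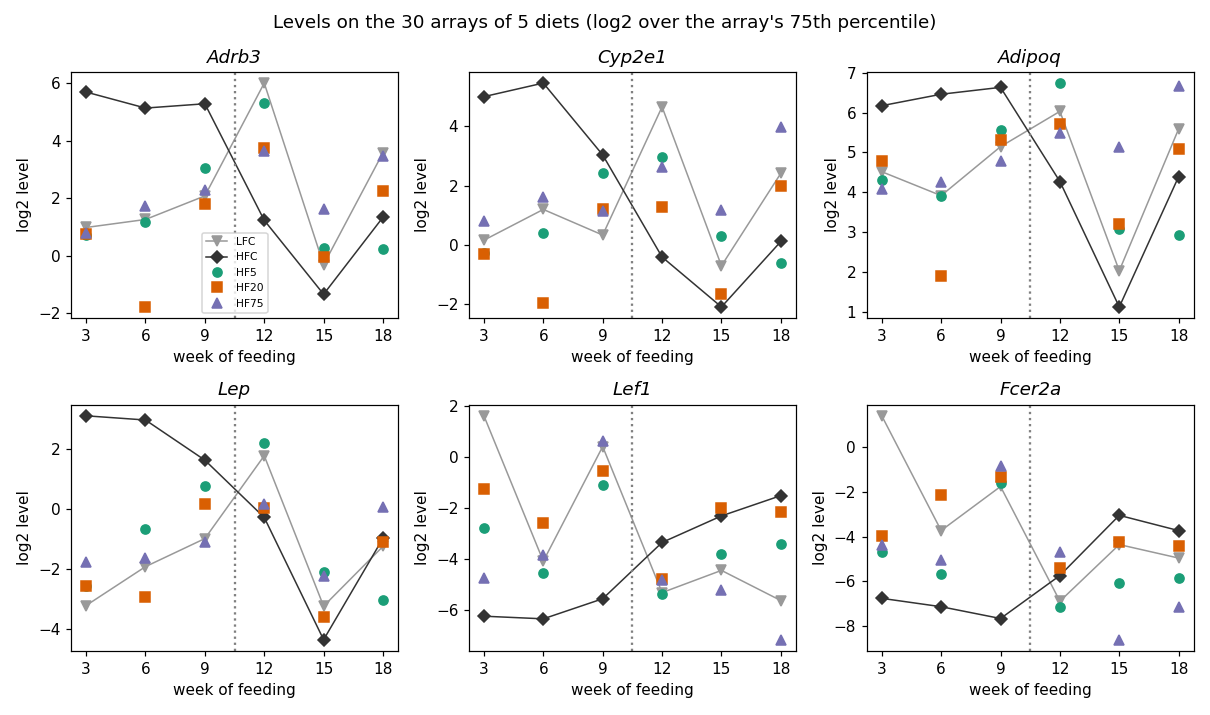
Log2 level of Adrb3, Cyp2e1, Adipoq, Lep, Lef1 and Fcer2a (vertical axis) on the 30 arrays of 5 diets by week number of the study (horizontal axis), with lines through the LFC and HFC arrays and symbols for the KAL-1 doses. The HFC points of Adrb3 in Weeks 3 to 9, between 5.13 and 5.69, lie above all KAL-1 points of those weeks.

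Against the low-fat diet the late minus early differences gave 0 of 21087 genes (0%) at limma's adjusted p under 0.05 and 860 (4.08%) at the unadjusted limit. The 3 smallest p-values belonged to Tmprss6, which was above background on 0 of 3 early LFC arrays, Scg5, which was above it on 5 of 9 early and 3 of 9 late KAL-1 arrays, and Tlcd2 (-2.29 ± 0.60), with an adjusted p of 0.99. Neither of the dim genes is given a size. Of the 20 cell cycle genes 5 had the larger difference on KAL-1 at the unadjusted limit and 0 the smaller, with Mcm6 at 1.73 and Cdc20 at 1.55, whereas against HFC 0 had the larger and 1 the smaller, Mcm2 at -1.38. Of the leading genes, Tk1 was 1.21 less negative on KAL-1 than on LFC (unadjusted p = 0.0373), and Per2 differed by 1.80 (unadjusted p = 0.0435). A p that misses the threshold here does not show that the diets act alike, with 3 LFC arrays per period.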

How the data were processed

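Single-colour Agilent arrays (Cy3, 43803 spots without controls) of mouse subcutaneous adipose were used. Per the file headers, the deposited intensity values are signals that the authors' scanner software, Agilent Feature Extraction 10.5.1.1, had background-subtracted. The submitters' processing notes name version 9.1. A deposited table holds the authors' log2 ratios, with the same week's LFC array as denominator, and was used only to check labels and as an alternative. Its late minus early comparison shares 1 LFC array among the 3 doses of a week.

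The members and the gene lists were chosen with earlier results of these data known, and some gene lists came from that earlier work. For each array, log2 of the processed signal minus the array's 75th percentile was taken. Control spots and spots marked as outliers were left out and spots of 1 probe were averaged. Each gene was represented by the brightest of its probes, judged by the mean of all 39 arrays, and gene names were those of the array design. Of 29411 names, 16182 matched a RefSeq symbol or synonym (GRCm38.p6). Genes well above background on at least 9 of 18 arrays (6 of 30 with HFC and LFC) were tested in limma 3.58.1 (R 4.3.3) with two-sided p-values and Benjamini-Hochberg adjustment at 0.05. The comparison of late with early weeks had dose as a block. The comparisons with HFC and LFC had diet and week, and that of doses had dose and week. The tests were checked on simulated data whose arrays were drawn independently, so that check does not cover the spread shared by arrays of a week. Named were, where no gene passed, the 5 with the smallest p in each direction among genes above background on at least 1 array of each period, leaving out clone, predicted and locus names, up to 4 members per list by p, and 14 genes such as Lep and Cx3cr1 always. For the comparisons with other diets the 5 largest and 5 smallest differences that passed were named, or the 3 smallest p where none did. Further list members were chosen after their values were seen, for their role. Some list members are counted but not reported here by name. The arrays' number, rather than a read depth, limits precision. Their 75th percentile signal ranged from 206 to 1285 and 49.3% to 87.8% of spots were above background. Spots flagged as saturated were kept (44 on HF20 Week 12 to 882 on HF75 Week 12). Levels of the brightest genes may therefore be understated. Promoters are RefSeq windows of 250 bases. Alternatives covered background correction, scaling, filters, probes, weights, blocks and leaving out each week or dose.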

Additional observations from a re-analysis of the deposited data

Results flagged for a closer look

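For 86 groups of 9 arrays, the gap of the highest or lowest array to its neighbour was set against the range of the group, and 22 groups had an array far from the others by Dixon's criterion. Chance alone would mark about 1 in 20 groups. In 14 of the 22 the array was HF75 Week 3.

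Among list means of the early period, HF75 Week 3 stood apart in skeletal muscle (7.15), oxidative phosphorylation (6.78), fatty acid oxidation (3.65), hypoxia response (2.32) and thermogenic fat (1.17) on the high side. It stood apart on the low side in cell cycle (-2.75), MHC class II (-2.57), immediate early (-0.24), collagen and matrix (1.28) and glucocorticoid response (1.83). Among single genes it stood apart in Itgax (-5.95), Ccl2 (-1.83) and Pparg (1.28), and its share of spots above background was 49.3%.

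Other arrays far from their group were HF20 Week 6 in Adipoq (1.89), HF75 Week 18 in Col1a1 (2.79), and HF5 Week 12 in Mest (3.18) and the vessel list mean (2.44). HF20 Week 12 was far from the other late arrays in Ucp1 (6.51) and in the thermogenic list mean (2.65). HF20 Week 15 had 87.8% of spots above background and 4936 outlier spots.

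Between diets, the late minus early difference of KAL-1 and HFC differed by the test of the difference itself in 178 genes. Those among the 5 most positive and 5 most negative differences with at least 1 array above background in each diet and period were 8.16 for Fam110c (above it on 2 of 9 early KAL-1 arrays), 6.29 for Acvr1c, 6.08 for Adrb3, 6.06 for Cyp2e1, -6.00 for Klrc2 (above it on 2 of 3 early HFC arrays) and -5.63 for Lef1 (above it on 1 of 3 early HFC arrays).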

How the results depend on the processing

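The count of 0 genes in late against early was 1 without a filter on dim probes (Cx3cr1) and between 0 and 516 when each week was left out, where Week 3 gave 516. Every other alternative run gave 0, with 373 to 2882 genes at the unadjusted limit apart from Week 3, among them week as a random block (789, correlation 0.249), scan day as a random block (1007) and week means (677). Median scaling and normexp moved the median of all genes by -0.12 and -0.13. Of the 67 named genes past the unadjusted limit, 60 kept their sign in every alternative. Under normexp the sign turned for Spdya (-0.32), Saa2 (-0.0029), Slc27a2 (-0.26), Sfrs3 (-0.010), Lor (-0.54) and Cry1 (-0.51), and with HF5 alone for Mdm2 (0.11). Leaving out HF20 Week 3 or HF20 Week 12, both added after the data were seen, gave 0 with 2588 and 2126 unadjusted. The 178 genes of KAL-1 against HFC became 50 under normexp, 92 under quantile normalization, 76 without a filter, 113 with probes above background on all arrays, 658 with array weights, 0 without the week block and 396 without HF75 Week 3. Leaving out each week gave 0 to 311 (311 without Week 3, 116 without Week 9, 59 without Week 18). Against LFC the authors' ratios gave 11, and every other alternative 0. The causes were not tested. Slide as a random block could not be fitted, since 1 of 17 slides held 2 of the 18 arrays, and 0 scan days held both periods, so no value within a day was had. No paired analysis was possible because, in late against early, the periods hold different weeks and the arrays carry no shared replicate numbers. The comparisons between diets and doses hold the same weeks and were fitted with week as a block. The number of arrays limits precision, and dim probes give their differences only with the background step named.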
